A study of Homo sapiens with 26 samples.

Results

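The 10 genes described here encode BCL2 family proteins that act at the outer mitochondrial membrane (OMM) and, in part, at the endoplasmic reticulum (ER). They were listed by name from knowledge of the family, and the list uses no measured value. They are BCL2L1 and MCL1, which oppose cell death, BAX and BAK1, which form the death pore, the BH3-only proteins BID, BCL2L11 and BBC3, and the mitophagy receptors BNIP3, BNIP3L and BCL2L13. All 10 were found among the 60663 genes of the RNA-seq files and among the 57770 single-gene entries of the ribosome footprint files.

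The measurements come from LOCL-TL, a proximity labelling method in which ribosomes are biotinylated near an organelle under blue light and then pulled down. The cells were HEK293T, a human embryonic kidney line, with an Avi tag placed on the endogenous ribosomal protein RPL29, and they carried BirA, the biotin ligase, fused to the light-gated LOV domain. In the ribosome profiling arm, LOV-BirA was anchored at the ER by Sec61β, anchored at the OMM by the transmembrane domain (TMD) of OMP25, or left free in the cytosol, and cycloheximide (CHX), which holds ribosomes on their mRNAs, was present during labelling. Each location had 2 replicates, each with a total input and a streptavidin pulldown of the same lysate, which made 12 libraries. In the RNA-seq arm the OMM-anchored LOV-BirA was used throughout, the mRNA bound to the pulled-down ribosomes was sequenced, and there were 14 libraries. The labels of these libraries give polyA RNA as the molecule, while the study's methods describe a kit that depletes ribosomal RNA. It compared a line that carried Cas9 and a negative control guide RNA (WT), a line in which AKAP1 was disrupted (AKAP1 null) and a line in which LARP4 was disrupted (LARP4 null), with 2 replicates each. A further pair of libraries, with 1 replicate, was labelled without CHX and for a shorter time, and the labels do not give its genotype. The ER bait was driven by an SFFV promoter and the OMM bait by an EF1α promoter, and each null line was 1 monoclonal line, so that the edited gene and the clone cannot be told apart. The labels do not state that the null lines were labelled with CHX; here they were set beside WT as the study did. The study calls the OMM footprint replicates biological. The labels do not say that any replicates were separate cultures, so for the others the p-values measure only the spread between these samples, which may be technical.

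Proteins of the BCL2 family decide whether the OMM is permeabilised. BAX and BAK1 form the pore that releases cytochrome c, BCL2L1 (BCL-xL) and MCL1 hold them in check, and the BH3-only proteins bind the guardians or activate the pore formers when a cell is damaged. Many members are tail-anchored: a single hydrophobic segment at the C terminus leaves the ribosome only when translation ends and is inserted into the OMM or the ER afterwards, and basic residues just behind that segment are known to favour the OMM. BNIP3, BNIP3L and BCL2L13 sit in the OMM by such an anchor and recruit the autophagy machinery to mitochondria, whereas BID is a soluble protein that moves to the OMM after caspase-8 cuts it.

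Because the tail anchor is the shared feature of most members and is made last by the ribosome, the final 30 coding bases before the stop codon are shown for 6 members on which the results below turn. They are written 5′ to 3′ on the coding strand, from the GENCODE 44 canonical transcripts on GRCh38, with lysine and arginine codons in capitals.
BCL2L1: gttctgctgggctcactcttcagtCGGAAA
MCL1: gtaggagctggtttggcatatctaataAGA
BAX: gcctcactcaccatctggAAGAAGatgggc
BAK1: cagtttgtggtaCGAAGAttcttcAAAtca
BID: gtgAGGagcttagccAGAaatgggatggac
BCL2L11: tacattgtcCGCctggtgtggAGAatgcat
The tails were scanned for a hydrophobic stretch, taken as 19 consecutive residues averaging 1.6 or more on the Kyte-Doolittle scale. Such a stretch lay within the last 40 residues of 6 of the 10 proteins, and none of these 6 had another one further upstream. The 6 were BCL2L1 (1.68), MCL1 (2.17), BAK1 (2.44), BNIP3 (1.91), BNIP3L (1.87) and BCL2L13 (2.63). The highest tail windows of BAX (1.40), BCL2L11 (0.75), BBC3 (0.46) and BID (0.25) were below this value. Among 19508 canonical proteins of the annotation, 5.81% had such a tail stretch, and 2.04% had it with none upstream. Of the 10 members, BID at chromosome 22, 17734138 to 17774770 on the minus strand, and BCL2L13 at chromosome 22, 17628855 to 17730855 on the plus strand, are neighbours in the genome (GRCh38).

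The libraries held 38347615 to 100840544 counts assigned to genes in RNA-seq, and 1025114 (OMM pulldown 1) to 19539527 (ER pulldown 1) footprints in coding sequence (CDS). The 4 markers of HEK293T cells summed to 106 to 125 FPKM in the total inputs, and the 6 markers of other cell types to 0.0302 to 0.0706 FPKM. Of the HEK293T markers, IGF2BP1 (68.5 to 77.2 FPKM) and LIN28B (27.1 to 45.1) were highest. NEFM was at 6.98 to 13.5 FPKM and PAX2 was low, at 0.797 to 1.56. The AKAP1 transcript had 21.4 and 22.4 FPKM in the WT total inputs and 6.02 and 3.81 in the AKAP1 null line, a log2 difference of −2.15 ± 0.22 (SE) with an adjusted p = 0.242. The LARP4 transcript had 27.7 and 28.5 FPKM in WT and 9.78 and 9.12 in the LARP4 null line, a log2 difference of −1.56 ± 0.12 with an adjusted p = 0.0405. In both null lines the targeted transcript was thus lower in both replicates and still present. Transcript level does not measure the protein, and the study screened its clones by Western blot for absence of the AKAP1 and LARP4 proteins.

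The 10 mRNAs differed widely in level. FPKM here is a gene's count divided by its exon length and by the library total, and the mean and SD are over the 6 total inputs of the WT, AKAP1 null and LARP4 null lines. MCL1 was the most abundant at 36.8 ± 4.37 FPKM (SD, n = 6), with values from 29.7 to 41.1. BAX followed at 18.7 ± 0.917 FPKM (SD, n = 6) and did not overlap any other member. BCL2L13 (13.8 ± 0.739), BNIP3L (12.7 ± 1.78), BAK1 (12.5 ± 1.25) and BCL2L11 (11.3 ± 0.884) came next, and each overlapped its neighbour in this order. BNIP3 (7.89 ± 0.775), BID (7.20 ± 0.968) and BCL2L1 (6.70 ± 0.482) overlapped each other, and BBC3, a p53 target that is low in unstressed cells, was lowest at 1.45 ± 0.0966 FPKM. The single total input labelled without CHX stood outside the range of the other 6 for 8 members. The share of all genes that did so was not computed, so this count is not read as a result about the members. That input was higher for BBC3 (3.85 FPKM), BNIP3L (21.5), BCL2L13 (20.1), BAX (24.4) and BNIP3 (10.3). It was lower for BCL2L11 (7.02), BAK1 (9.41) and MCL1 (28.0), with BID (6.37) and BCL2L1 (6.95) inside their ranges. In a bulk library, fewer cells that hold an mRNA and less of that mRNA per cell cannot be told apart.

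**Figure D1:**
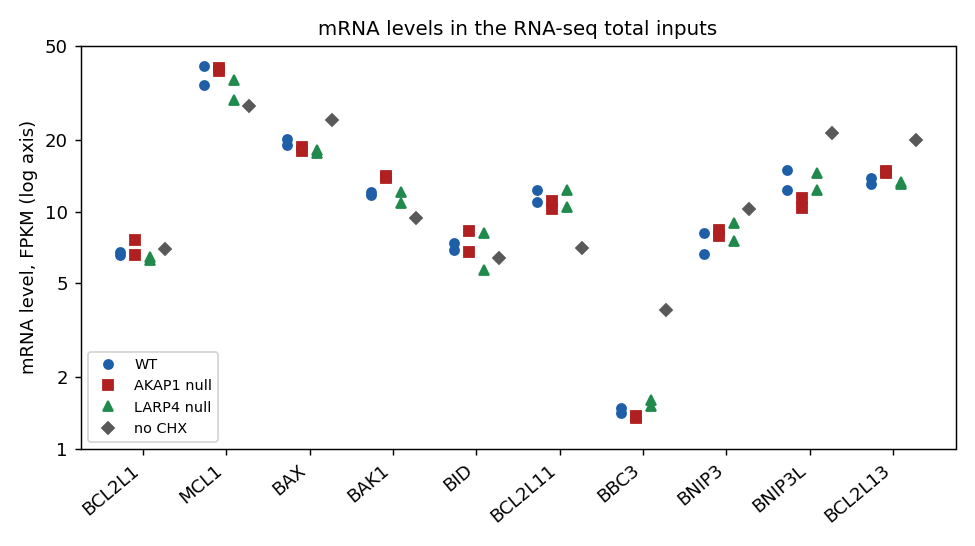
Level of each BCL2 family mRNA (FPKM, log axis) in the 7 RNA-seq total inputs, 1 point per library, coloured by line or condition. MCL1 sits at the top at 28.0 to 41.1 FPKM, and BBC3 sits at the bottom with 6 libraries at 1.35 to 1.6 and the library without CHX at 3.85.

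No member passed the test for a difference in total mRNA between a null line and WT. In the edgeR quasi-likelihood test over 13977 genes, 0 of 10 members passed an adjusted p of 0.05 for the AKAP1 null total inputs, against 0% of all genes in each direction, and 0 of 10 passed for the LARP4 null total inputs, against 0.00715% of all genes in each direction. In both comparisons 0 members had an unadjusted p under 0.05, and DESeq2 called 0 members as well. Over all genes, 214 were higher and 275 lower in the AKAP1 null line at an unadjusted p under 0.05, and DESeq2 called 8 and 7. The member farthest from 0 in the AKAP1 null line was BNIP3L, at −0.31 ± 0.13 (95% interval −0.63 to 0.00; adjusted p = 0.973).

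In WT cells with the OMM bait, the question was which of these mRNAs were on ribosomes close to mitochondria. The enrichment is log2 of the share of a gene in the pulldown over its share in the matched total input, in CPM, the count scaled to the library total. Of the 10 members, 3 were higher in the pulldown (BID, BAX and BAK1) and 3 lower (BCL2L11, BNIP3L and MCL1), while 20.2% of the 13856 genes tested were higher and 45.6% lower. The median over the 10 members was 0.08, and the median over all genes was −0.28, so that a gene with no change in rank sat below 0 on this scale.

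The anti-apoptotic pair differed from each other. MCL1, at chromosome 1, 150560895 to 150579738, had 255.9 and 212.6 CPM in the total inputs and 172.2 and 146.1 CPM in the pulldowns, which gave a log2 enrichment of −0.56 ± 0.09 (SE; adjusted p = 0.00059). BCL2L1, at chromosome 20, 31664452 to 31723989, had 28.3 and 27.6 CPM in the total inputs and 28.6 CPM in both pulldowns (0.03 ± 0.10, adjusted p = 0.778). The total and pulldown values of MCL1 did not overlap, and those of BCL2L1 were level to within their spread.

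Both pore formers were higher in the OMM pulldown. BAX, at chromosome 19, 48954815 to 48961798, went from 49.3 and 52.5 CPM in the total inputs to 85.2 and 105 CPM in the pulldowns, a log2 enrichment of 0.89 ± 0.11 (adjusted p = 0.000215), above that of 91.8% of genes. BAK1, at chromosome 6, 33572547 to 33580293, went from 26.1 and 26.8 to 32.6 and 35.4 CPM, a log2 enrichment of 0.36 ± 0.10 (adjusted p = 0.0108). The call for BAK1 rested on both lysates: it was 0.40 (adjusted p = 0.0837) without WT replicate 1 and 0.32 (adjusted p = 0.158) without WT replicate 2. BAK1 overlaps the antisense gene GGNBP1, and the sources do not state that reads were counted by strand.

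The BH3-only members spread over the widest range. BID had 32.7 and 30.6 CPM in the total inputs and 85.3 and 82.3 CPM in the pulldowns, the highest enrichment of the 10 at 1.41 ± 0.09 (adjusted p = 1.5e-05), above that of 96.7% of genes. BCL2L11 (BIM), at chromosome 2, 111119378 to 111168444, had 82.0 and 73.2 CPM in the total inputs and 42.9 and 38.4 CPM in the pulldowns, the lowest enrichment of the 10 at −0.93 ± 0.08 (adjusted p = 4.1e-05), and 13.4% of genes were lower still. BBC3 (PUMA), at chromosome 19, 47220822 to 47232766, had only 172 and 216 counts in the total inputs, and its enrichment of 0.22 ± 0.16 did not pass (adjusted p = 0.239). BID and BCL2L11, neither of which had a hydrophobic tail stretch by the measure above, thus lay at opposite ends of the family.

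Among the mitophagy receptors, BNIP3L was lower in the pulldown and the other two were near 0. BNIP3L, at chromosome 8, 26383054 to 26505636, had 62.3 and 51.1 CPM in the total inputs and 40.3 and 34.3 CPM in the pulldowns (−0.60 ± 0.09, adjusted p = 0.000469). BNIP3, at chromosome 10, 131967684 to 131981967, had an enrichment of 0.13 ± 0.09 (adjusted p = 0.206), and BCL2L13 one of −0.15 ± 0.09 (adjusted p = 0.191). The gene name table lists 44 BNIP3 pseudogenes, so reads of BNIP3 may have been shared or lost in counting.

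When the libraries were scaled by the trimmed mean of M values (TMM), which centres the bulk of genes, the median of all genes moved from −0.28 to 0.01 and 9 of 10 members passed, 6 higher and 3 lower, against 31.0% and 27.8% of all genes. The directions of BID (1.70), BAX (1.19), BAK1 (0.66), BCL2L11 (−0.64), BNIP3L (−0.31) and MCL1 (−0.26) were kept. BNIP3 (0.43), BBC3 (0.52) and BCL2L1 (0.33) then joined the higher side, and BCL2L13 went from −0.15 to 0.15 without passing in either scaling.

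**Figure D2:**
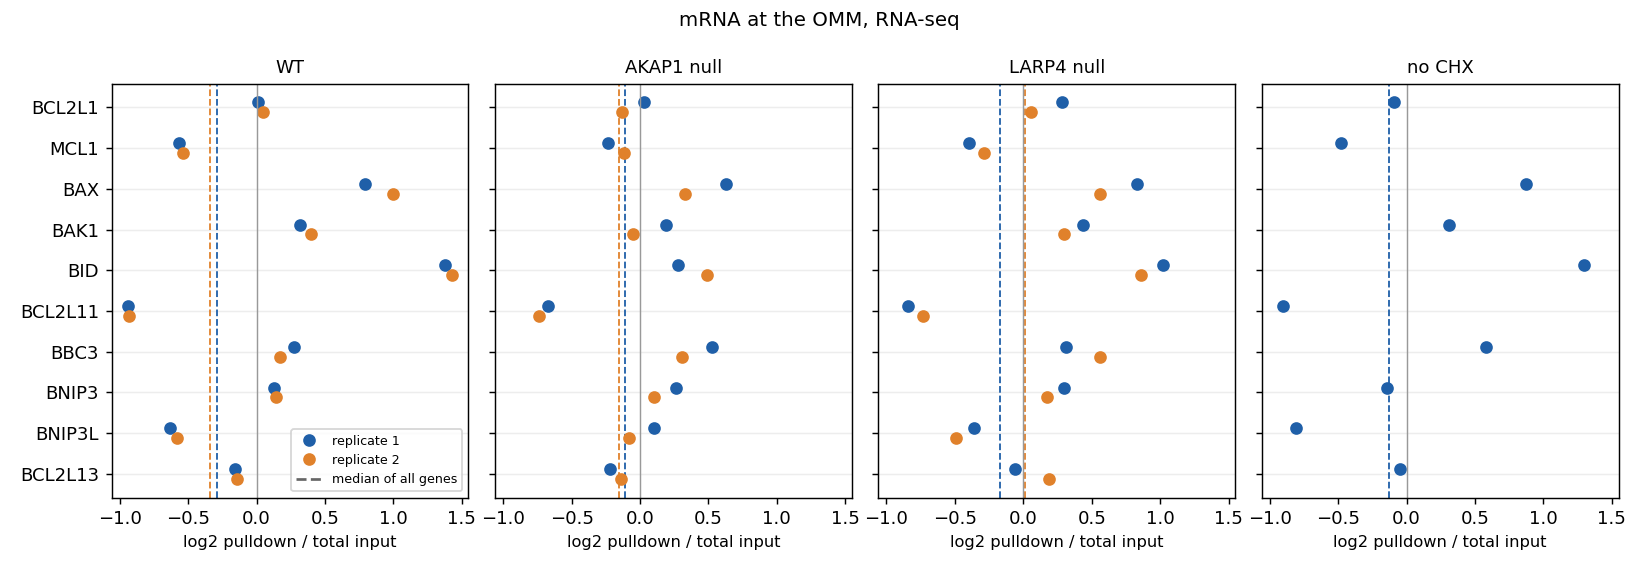
Log2 enrichment in the OMM pulldown over total input of each member in the WT, AKAP1 null and LARP4 null lines and without CHX, 1 point per lysate. In WT, BID sits highest at 1.38 and 1.43 and BCL2L11 lowest at −0.94 and −0.93.

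Without CHX, with 1 lysate and hence no test, the members held a similar order. BID was at 1.30 (95% counting interval 1.23 to 1.37), BAX at 0.87 (0.82 to 0.92), BBC3 at 0.58 (0.47 to 0.70) and BAK1 at 0.31 (0.21 to 0.40). BCL2L1 was at −0.09 and BCL2L13 at −0.05, close to 0, and BNIP3 was at −0.14. BCL2L11 was lowest at −0.90 (−0.99 to −0.82), followed by BNIP3L at −0.81 (−0.87 to −0.75) and MCL1 at −0.48 (−0.52 to −0.45). Only BID was past a log2 value of 1, that is 1 of 10 members above 1 and 0 below −1, against 8.42% and 5.94% of the 15112 genes measured. The intervals cover counting error only, and the difference from the lysates labelled with CHX was not tested.

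AKAP1 is an RNA-binding scaffold of the OMM, and in its null line fewer members passed than in WT. BAX (0.48 ± 0.11, adjusted p = 0.0106) and BID (0.39 ± 0.09, adjusted p = 0.0112) were higher in the pulldown and BCL2L11 was lower (−0.71 ± 0.08, adjusted p = 0.000569), which is 2 and 1 of 10 members against 13.9% and 28.1% of genes. With TMM scaling it was 4 and 1, against 20% and 20.7%. The calls for BAX and BID needed both lysates. Without AKAP1 null replicate 1, BAX was at 0.33 (adjusted p = 0.198) and BID at 0.49 (adjusted p = 0.0588), and without replicate 2 they were at 0.63 (adjusted p = 0.0559) and 0.28 (adjusted p = 0.189).

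LARP4 is a La-related RNA-binding protein. In its null line 5 of 10 members were higher and 3 lower, against 22.8% and 30.0% of genes. The higher members were BID (0.94 ± 0.09, adjusted p = 0.000182), BAX (0.70 ± 0.11, adjusted p = 0.00132), BAK1 (0.37 ± 0.10, adjusted p = 0.0129), BBC3 (0.43 ± 0.15, adjusted p = 0.042) and BNIP3 (0.24 ± 0.09, adjusted p = 0.0484). The lower members were BCL2L11 (−0.78 ± 0.08, adjusted p = 0.000218), BNIP3L (−0.43 ± 0.09, adjusted p = 0.00421) and MCL1 (−0.34 ± 0.09, adjusted p = 0.00997). With TMM scaling it was 5 higher and 2 lower, against 27.9% and 25.0% of genes, and MCL1 lost its call (−0.25, adjusted p = 0.0544). MCL1, BAK1, BBC3, BNIP3 and BNIP3L each lost their call without the block for lysate. The same held in fits of only the libraries compared. BBC3 lost its call without LARP4 null replicate 2 (0.31, adjusted p = 0.145), and BNIP3 without replicate 1 (0.17, adjusted p = 0.164).

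The direct comparison of the AKAP1 null with the WT enrichment moved BID down and BNIP3L up. These 2 members, 1 in each direction, stand against 6.52% of all genes higher and 7.96% lower, and the median over all genes was itself 0.19. With TMM scaling it was 0 higher and 1 lower (BID), against 2.06% and 10.3%. BID had enrichments of 1.38 and 1.43 in WT and of 0.28 and 0.49 in the AKAP1 null line, with no overlap. Its total inputs were alike, at 32.7 and 30.6 CPM in WT and 36.6 and 29.9 in the null line, and the pulldowns were not, at 85.3 and 82.3 CPM against 44.6 and 42.1. The fitted difference was −1.02 ± 0.13 (95% interval −1.32 to −0.72; adjusted p = 0.00164), and 4.3% of genes had a lower one. With TMM scaling it was −1.19 (adjusted p = 0.000919), and leaving out any single lysate of WT or of the AKAP1 null line did not end the call. Without the block for lysate the difference was the same (−1.02) and no longer passed (adjusted p = 0.158).

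BNIP3L had enrichments of −0.63 and −0.58 in WT and of 0.10 and −0.08 in the AKAP1 null line, again with no overlap. Its pulldowns had 50.9 and 41.0 CPM in the null line against 40.3 and 34.3 in WT, and its total inputs had 47.4 and 43.3 against 62.3 and 51.1, so that both parts of the ratio contributed to the higher value. The fitted difference was 0.61 ± 0.12 (95% interval 0.33 to 0.90; adjusted p = 0.015), or 0.43 above the median of all genes. This call was less firm than that of BID. It was lost with TMM scaling (0.44, adjusted p = 0.0813), with DESeq2 (0.47, adjusted p = 0.0727), without WT replicate 1 (0.59, adjusted p = 0.145) or 2 (0.64, adjusted p = 0.154), and without AKAP1 null replicate 1 (0.53, adjusted p = 0.141) or 2 (0.70, adjusted p = 0.068).

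The other 8 members did not pass in this comparison. BAX had enrichments of 0.63 and 0.33 in the AKAP1 null line against 0.79 and 1.00 in WT, without overlap. It differed by −0.42 ± 0.16 (95% interval −0.78 to −0.05; adjusted p = 0.111) with edgeR and by −0.56 (adjusted p = 0.0416) with DESeq2. MCL1, at −0.23 and −0.12 against −0.57 and −0.54, differed by 0.38 ± 0.12 (0.11 to 0.66; adjusted p = 0.0675) and BAK1, at 0.19 and −0.05 against 0.32 and 0.40, by −0.29 ± 0.14 (−0.61 to 0.02; adjusted p = 0.177). BCL2L11, the most depleted member, differed by 0.23 ± 0.12 (−0.04 to 0.49; adjusted p = 0.205). The intervals of BCL2L1, BBC3, BNIP3 and BCL2L13 all included 0.

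For the LARP4 null against WT, 0 of 10 members and 0% of all genes in each direction passed with edgeR. At an unadjusted p under 0.05 it was 1 member, BID, with 1604 genes higher and 666 lower, and DESeq2 called 2 genes higher and 454 lower, again with BID as the 1 member (−0.67, adjusted p = 0.0167). BID had enrichments of 1.02 and 0.86 in the LARP4 null line, below both WT values and above both AKAP1 null values. Its edgeR difference from WT was −0.47 ± 0.13 (95% interval −0.76 to −0.17, adjusted p = 0.289). Without LARP4 null replicate 1 this difference was −0.55. That of BCL2L13 was then 0.33, against 0.21 in the full fit. Such a fit assumes that the lone lysate varied like the others. The median enrichment of all genes was −0.29 and −0.34 in the WT lysates and 0.01 in LARP4 null replicate 2, so the bulk of genes also lay higher there. The comparisons of the 2 null lines share the WT libraries, so their values are set side by side and no relation between them is drawn.

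**Figure D3:**
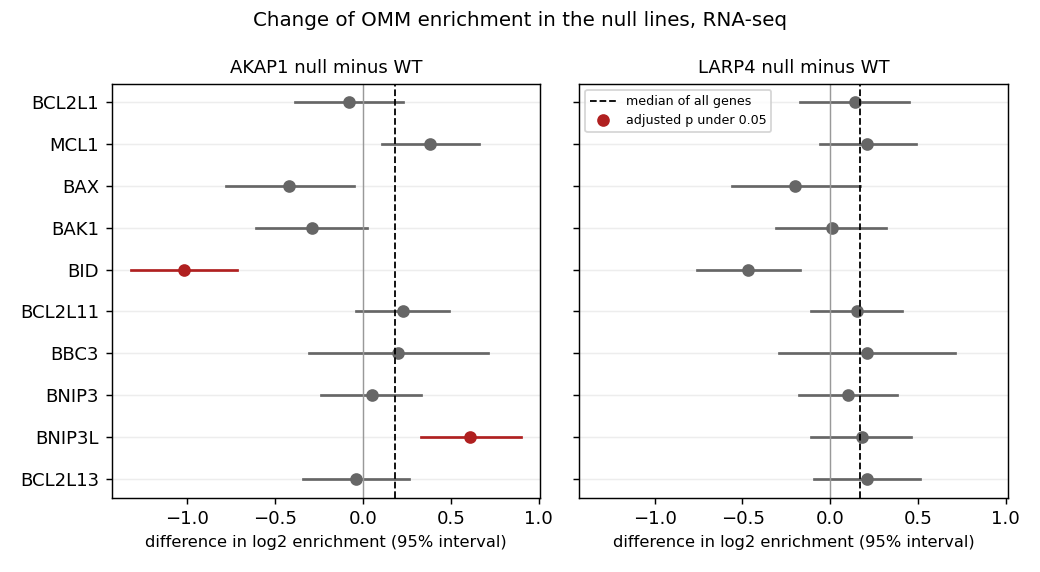
Difference in log2 OMM enrichment from WT for each member, in the AKAP1 null line and in the LARP4 null line, with 95% intervals from the edgeR fit. BID lies farthest below 0 in both panels, at −1.02 and −0.47, and BNIP3L farthest above 0 in the AKAP1 null line, at 0.61.

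The ribosome footprints asked the same of the OMM bait with translating ribosomes, and added the ER and the cytosol. CDS footprints were counted by the authors over a limited set of positions per gene, which was short for some members, at 206 positions for BID, 117 for BAK1 and 6 for BCL2L13. BCL2L13 had 0 CDS footprints in all 12 libraries. A member was read where both total inputs of a location held at least 64 CDS footprints, which gave 5 members at the ER (MCL1, BAX, BID, BNIP3 and BNIP3L), 4 at the OMM (the same without BID) and 5 in the cytosol (with BBC3 in place of BID). All footprints on a gene's exons were tested as well, which raised this to 9, 8 and 9 members. BAK1 was reached at no location, with 307 exon positions in the files and 52 to 193 exon footprints in a total input, and BBC3 was not reached at the OMM.

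At the OMM, 1 of the 4 members was higher (BAX) and 1 lower (MCL1) in CDS footprints, against 17.0% and 46.0% of 6728 genes. BAX had 71.0 and 42.7 CPM in the total inputs and 94.2 and 74.8 CPM in the pulldowns, log2 values of 0.41 and 0.81. The fitted enrichment was 0.63 ± 0.15 (adjusted p = 0.00148), and it fell to 0.41 (adjusted p = 0.135) without OMM replicate 2. MCL1 had 246.9 and 218.1 CPM in the total inputs and 154.2 CPM in both pulldowns, an enrichment of −0.58 ± 0.11 (adjusted p = 0.000168). MCL1 was at −0.26 (adjusted p = 0.0482) with TMM scaling and lost its call with DESeq2 (−0.23, adjusted p = 0.149). BNIP3 (0.08 ± 0.20, adjusted p = 0.728) and BNIP3L (−0.46 ± 0.21, adjusted p = 0.0654) did not pass. TMM scaling left 1 member higher and 1 lower, against 25.8% and 24.4% of genes.

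With all exon footprints, BID was the most enriched member at the OMM. It had 546 and 544 footprints in the total inputs and 276 and 694 in the pulldowns, which is 67.0 and 62.6 CPM against 168 and 173 CPM. The enrichment was 1.33 and 1.46 in the lysates and 1.40 ± 0.11 in the fit (adjusted p = 1.66e-08), above that of 97.3% of genes. BID's CDS positions held only 55 and 43 footprints in these total inputs and 12 and 46 in the pulldowns, with log2 values of 0.20 and 1.21. In lysate 1 the counting interval of the CDS value (−0.92 to 1.03) did not overlap that of the exon value (1.12 to 1.54). In lysate 2, with the deeper pulldown, the intervals did overlap (0.59 to 1.85 and 1.30 to 1.63). Most of BID's exon footprints lay at positions that the files assign to neither the CDS nor a UTR, and which positions carried the enrichment was not tested. BAX was higher as well (0.72 ± 0.11, adjusted p = 2.07e-05) and MCL1 lower (−0.65 ± 0.10, adjusted p = 1.65e-05), which made 2 and 1 of 8 members against 16.5% and 49.0% of 8431 genes. With TMM scaling the members' counts were the same, against 26.6% and 25.6%. BCL2L11, depleted in OMM RNA-seq, was at −0.19 and 0.30 in the footprints (0.10 ± 0.19, adjusted p = 0.663), from 27 and 80 pulldown footprints.

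At the ER no member was higher in CDS footprints and 3 of 5 were lower, against 19.8% and 72.0% of 7381 genes, and the median of all genes was −0.68. MCL1 went from 255.8 and 244.9 CPM to 139.8 and 134.1 CPM, a log2 value of −0.87 in both lysates (−0.87 ± 0.09, adjusted p = 1.12e-07). BNIP3L (−0.75 ± 0.15, adjusted p = 0.000127) and BNIP3 (−0.63 ± 0.15, adjusted p = 0.000743) were lower on this scale, and lay within 0.07 of the median of all genes. With TMM scaling 2 members were higher and 1 lower, against 29.2% and 25.4% of genes. MCL1 stayed lower (−0.22, adjusted p = 0.045), though not with DESeq2 (−0.26, adjusted p = 0.0525), BNIP3L was at −0.10 and BNIP3 at 0.02, neither passing. BAX (0.21 ± 0.12, adjusted p = 0.109) and BID (0.22 ± 0.23, adjusted p = 0.354) were 0.89 and 0.90 above the median, and TMM scaling placed them at 0.86 (adjusted p = 2.92e-05) and 0.87 (adjusted p = 0.00602).

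In exon footprints at the ER, 1 of 9 members was higher (BAX, 0.31 ± 0.10, adjusted p = 0.00641) and 7 were lower, against 20.9% and 72.0% of 8997 genes. BAX lost this call without ER replicate 1 (0.29, adjusted p = 0.081), as did BBC3 (−0.30, adjusted p = 0.329), and BNIP3 lost its call without ER replicate 2 (−0.45, adjusted p = 0.0599). BID was at 0.25 and 0.04 (0.15 ± 0.10, adjusted p = 0.158). The 7 lower members ranged from −0.46 for BCL2L13 to −0.82 for MCL1, around the median of all genes of −0.65. With TMM scaling 2 members were higher, BAX (0.92, adjusted p = 6.47e-07) and BID (0.76, adjusted p = 8.42e-06), and 1 lower, against 30.6% and 25.7% of genes. The lower one was MCL1 (−0.21, adjusted p = 0.0417), while BNIP3 (0.07), BBC3 (0.04) and BCL2L13 (0.15) turned above 0 without passing.

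With the free cytosolic bait, which serves as the background, no member passed in edgeR with CDS footprints (0 of 5) or exon footprints (0 of 9). At an unadjusted p under 0.05 it was 0 and 3 members, and DESeq2 called 0 in each. Over all genes, 2.02% were higher and 5.96% lower in CDS footprints, and 3.58% and 6.84% in exon footprints. MCL1 was at −0.11 and 0.05 in CDS footprints, BAX at −0.03 and 0.10, and BBC3 at 0.16 and −0.03. BID, from exon footprints, was at 0.13 and −0.25. In exon footprints of the full fit, BAX was at 0.24 and BNIP3L at 0.30. Without cytosol replicate 1, whose pulldown was sequenced in another run than its total input, they were at 0.47 and 0.53. That fit assumes that the lone cytosol lysate varied like the others. The median of all genes in cytosol replicate 2 was 0.01. Any effect of the run was not tested. The cytosol total inputs were not alike for BBC3, whose deposited CDS RPKM (reads scaled to region length and library total) was 34.9 in replicate 2 and 5.01 to 8.54 in the other 5 total inputs.

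Between locations, BID was higher at the OMM than at the ER or in the cytosol. In exon footprints the OMM enrichment of BID was above its cytosol enrichment by 1.44 ± 0.15 (adjusted p = 7.9e-07), and its ER enrichment below its OMM enrichment by 1.25 on the log2 scale (−1.25 ± 0.15, adjusted p = 1.21e-06). Neither call was lost when any single replicate was left out. With TMM scaling these differences were 1.76 (adjusted p = 2.06e-07) and −0.97 (adjusted p = 5.61e-05), and BID at the ER was then above the cytosol as well (0.80, adjusted p = 0.000277). For BAX the OMM enrichment was above that of the cytosol by 0.48 ± 0.15 in exon footprints (adjusted p = 0.0101) and by 0.60 ± 0.19 in CDS footprints (adjusted p = 0.0142). The exon call was lost without OMM replicate 2 (0.35, adjusted p = 0.177) and without cytosol replicate 1 (0.26, adjusted p = 0.12), and the CDS call without OMM replicate 2 (0.39, adjusted p = 0.223). Without the block for lysate neither passed (0.47, adjusted p = 0.347 and 0.55, adjusted p = 0.39). With TMM scaling BAX was above the cytosol both at the OMM (0.80, adjusted p = 0.000517 in exon and 0.92, adjusted p = 0.00167 in CDS footprints) and at the ER (0.67, adjusted p = 0.00101 and 0.83, adjusted p = 0.00111). Its difference between the ER and the OMM then did not pass (−0.13, adjusted p = 0.545 and −0.09, adjusted p = 0.783).

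MCL1 was lower at the OMM than in the cytosol, by −0.74 ± 0.13 in exon footprints (adjusted p = 0.000114) and by −0.55 ± 0.14 in CDS footprints (adjusted p = 0.00337). The exon call was kept with TMM scaling (−0.41, adjusted p = 0.0153) and DESeq2 (−0.41, adjusted p = 0.0331) and lost without the block (−0.76, adjusted p = 0.0869). The CDS call was lost with TMM scaling (−0.23, adjusted p = 0.181), with DESeq2 (−0.22, adjusted p = 0.329), without the block (−0.57, adjusted p = 0.195) and without OMM replicate 1 (−0.47, adjusted p = 0.0522).

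Counts of called members between locations depended on the scaling, and so did those over all genes. With library totals as scale, the median of all genes for OMM against cytosol was −0.36 in CDS and −0.35 in exon footprints. It was −0.66 and −0.61 for ER against cytosol, and −0.28 and −0.22 for ER against OMM. For OMM against cytosol, 1 of 4 members was higher and 1 lower in CDS footprints, against 16.6% and 39.7% of genes, and 2 of 8 were higher and 2 lower in exon footprints, against 15.9% and 42.0%. With TMM scaling it was 1 higher (BAX) and 0 lower in CDS footprints, against 24.5% and 20.8%, and 3 and 1 in exon footprints, against 25.1% and 22.5%. For ER against cytosol, 0 of 4 members were higher and 3 lower in CDS footprints, against 19.6% and 62.6%, and 0 of 9 were higher and 6 lower in exon footprints, against 20.7% and 63.9%. TMM scaling turned this to 1 higher (BAX) and 0 lower in CDS footprints, against 28.9% and 20.2%, and in exon footprints to 2 higher (BAX and BID) and 1 lower (MCL1, −0.30, adjusted p = 0.045), against 29.4% and 20.5%. For ER against OMM, 0 of 4 were higher and 1 lower (BNIP3, −0.71 ± 0.25, adjusted p = 0.0257) in CDS footprints, against 18.6% and 31.1%. In exon footprints it was 0 and 4 of 8 members (BID, BCL2L11, BAX and BCL2L13), against 20.9% and 30.2%. With TMM scaling 0 and 0 members passed in CDS footprints, against 22.7% and 14.2%, and 0 and 1 (BID) in exon footprints, against 25.4% and 15.5%. BCL2L11 was lower at the ER than at the OMM by −0.83 ± 0.24 (adjusted p = 0.00774), BAX by −0.42 ± 0.15 (adjusted p = 0.0246) and BCL2L13 by −0.40 ± 0.15 (adjusted p = 0.0318). The 4 calls other than that of BID were each lost with TMM scaling (BNIP3 −0.38, adjusted p = 0.274; BCL2L11 −0.55, 0.0819; BAX −0.13, 0.545; BCL2L13 −0.12, 0.562), with DESeq2 (−0.46, −0.61, −0.20 and −0.20) and without the block (−0.73, −0.78, −0.39 and −0.42). Each was also lost by leaving out 1 replicate. BNIP3 lost its call when any single ER or OMM replicate was left out (adjusted p = 0.0634 to 0.135), and BCL2L11 without OMM replicate 2 (−0.50, adjusted p = 0.27). BAX lost it without ER replicate 1 (adjusted p = 0.078), ER replicate 2 (0.0913) or OMM replicate 2 (0.282), and BCL2L13 without ER replicate 1 (0.131), ER replicate 2 (0.09) or OMM replicate 1 (0.207).

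**Figure D4:**
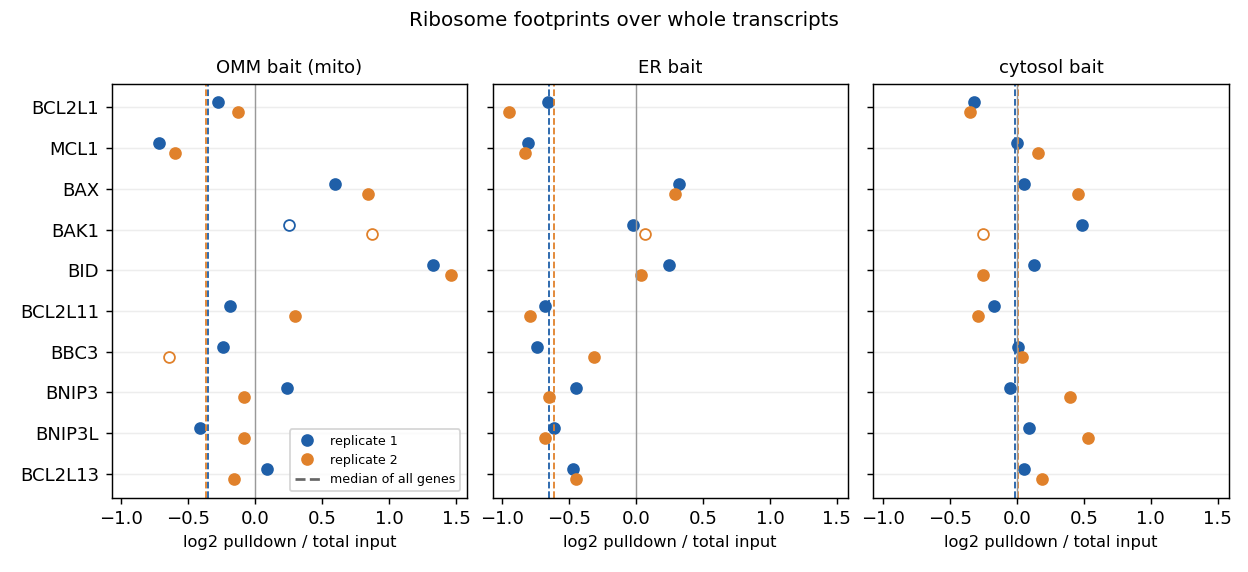
Log2 enrichment of exon footprints in the pulldown over total input for each member at the ER, the OMM (mito) and the cytosol, 1 point per replicate. At the OMM, BID sits at 1.33 and 1.46 and BAX at 0.60 and 0.84, and in the cytosol the same members sit between −0.25 and 0.46.

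The footprints of BCL2L1 and BCL2L11 lay mostly outside their coding sequence. In the 6 total inputs, 61.0 to 71.5% of the exon footprints of BCL2L1 and 55.1 to 65.3% of those of BCL2L11 fell in the 5′ UTR. In ER total input 1, for example, BCL2L1 had 228 footprints in the 5′ UTR and 73 in the CDS, and BCL2L11 had 231 and 111. Per position, the 5′ UTR was denser than the CDS in all 6 total inputs, by a log2 value of 0.34 to 0.85 for BCL2L1 and of 1.35 to 2.05 for BCL2L11. Among all genes with enough footprints, 12.3 to 26.1% were denser in the 5′ UTR, and the median was between −1.24 and −2.19.

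The other members had smaller 5′ UTR shares. BBC3 had 21.3 to 34.7% and BAK1 13.7 to 25.0% of exon footprints there. BNIP3L had 2.78 to 7.51%, BID 1.5 to 3.49%, BCL2L13 1.26 to 3.09% and BAX 0.281 to 0.506%. MCL1, the most abundant member, had 0.0654 to 0.246%, and BNIP3, with 12 positions of 5′ UTR in the files, had none. Most exon footprints of some members lay at positions that the files assign to no region. In ER total input 1, BID had 30 footprints in the 5′ UTR, 113 in the CDS and 1 in the 3′ UTR of 1471 on its exons, and BCL2L13 had 33, 0 and 1 of 1522. For these members a low 5′ UTR share says little about where the footprints lay. Region shares were computed for the total inputs only, not for the pulldowns. For BCL2L1 and BCL2L11, the exon enrichments given above thus rest on total inputs with most footprints in the 5′ UTR. Whether CHX or the handling of the lysate placed these footprints was not tested.

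**Figure D5:**
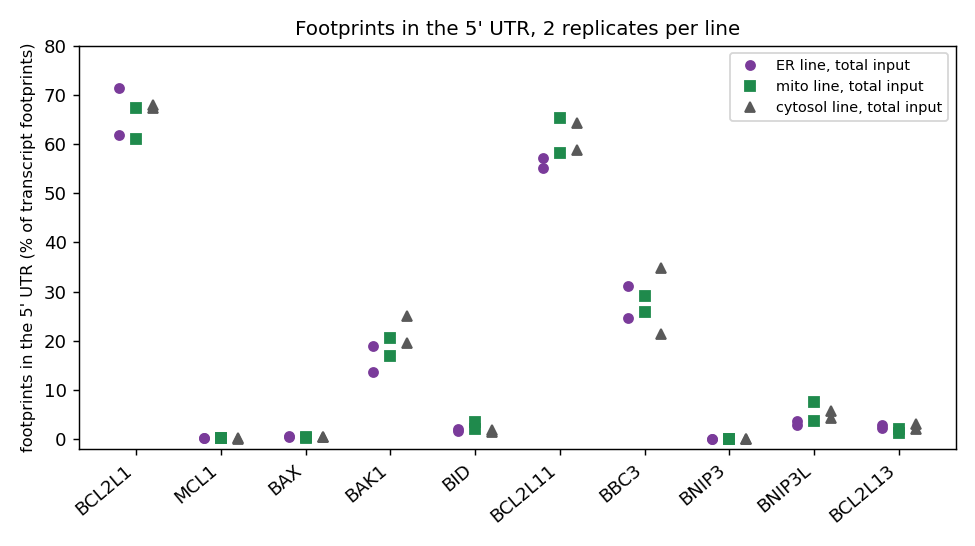
Share of each member's exon footprints that fell in the 5′ UTR (%) in the 6 total inputs, 1 point per library. BCL2L1 and BCL2L11 sit at 55.1 to 71.5%, BBC3 and BAK1 at 13.7 to 34.7%, and the other 6 members at or below 7.51%.

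Lists of related genes give these values a frame. Of 15 other BCL2 family genes 9 were tested in RNA-seq, and in WT 3 were higher at the OMM and 4 lower, with a median of −0.40, beside 20.2% and 45.6% of all genes and a median of −0.28. The higher genes were BCL2L12 (1.59 ± 0.13), the BH3-only gene BAD (1.26 ± 0.14) and BNIP1 (0.78 ± 0.11). Of 10 tail-anchored OMM proteins outside the family, 6 were higher and 3 lower, with a median of 0.47, led by the import subunit TOMM7 (2.08 ± 0.10) and the fission factor FIS1 (1.75 ± 0.10). Of 14 tail-anchored ER proteins 6 were higher and 4 lower (median 0.12), and of 16 genes that act downstream of the OMM in apoptosis 5 were higher and 8 lower (median −0.33), with AIFM1 at 2.02 ± 0.12 and the caspase inhibitor XIAP at −1.12 ± 0.09. Among the members, BID at 1.41 was thus on the level of the more enriched of these genes, and BCL2L11 at −0.93 near XIAP.

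In the AKAP1 null line against WT, 5 of the 10 tail-anchored OMM proteins were lower and 0 higher (median −0.47, against 0.19 for all genes, of which 7.96% were lower and 6.52% higher), with TOMM7 at −1.86 ± 0.13 and FIS1 at −1.37 ± 0.14. Of the other BCL2 family genes 1 was higher and 2 lower, BCL2L12 (−1.31 ± 0.18, adjusted p = 0.00195) and BAD (−1.23 ± 0.20, adjusted p = 0.00499). BID's difference of −1.02 was near these. Of the 14 tail-anchored ER proteins 3 were lower and 0 higher, led by CYB5A (−1.44 ± 0.16), and of the genes downstream of the OMM 1 was higher (AIFM1, 1.38 ± 0.16) and 1 lower. In OMM CDS footprints, BCL2L12 (1.26 ± 0.17) and BNIP1 (0.95 ± 0.14) were the 2 of 5 other family genes that were higher, and 0 were lower, against 17.0% and 46.0% of all genes. Of 8 tail-anchored OMM proteins 4 were higher and 2 lower there, and TOMM7 was at 2.12 ± 0.09.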

How the data were processed

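HEK293T libraries were read from the files as deposited. The footprint files hold estimated counts and RPKM per gene region, which the authors made from unique reads of 27 to 36 bases aligned to GRCh38 with TopHat and counted with plastid, with repeated positions masked. The RNA-seq files hold raw counts per gene, which the authors made with STAR and featureCounts, and a deposited score on about 10 times the FPKM scale. FPKM was computed here from the counts and the gene lengths.

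Estimated counts were rounded, and edgeR 4.0.16 in R 4.3.3 (quasi-likelihood, two-sided, Benjamini-Hochberg adjusted p under 0.05 as the call) was fitted to all genes, with library totals as scale and the lysate as a block. Total input and pulldown came from the same lysate, and their deviations correlated at 0.62 to 0.89. Footprint genes needed 64 counts in both total inputs of each location compared, and RNA-seq genes a mean of 64 counts. Total inputs were compared with TMM scaling and no block. Exon footprints were tested by the same fit, an analysis added after seeing the data. The study's own tests of enrichment were not used. TMM, DESeq2 1.42.0, a minimum of 1 and a stricter one at 4 times the main value, no block, fits of only the libraries compared and leaving out each replicate were tried. Enrichment per lysate used 0.5 added counts. The fit was tested on simulated data. The rule for the members uses no measured value, but members and lists were chosen with earlier results of these data known. Named genes outside the family were at most the 3 called genes of a list with the largest change and the same sign in both replicates. Counting intervals and floors cover counting error only, since PCR reads are not independent molecules. The authors extracted molecular identifiers from footprint reads, but removal of duplicates is not stated, and none are stated for RNA-seq.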

Additional observations from a re-analysis of the deposited data

Results flagged for a closer look

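The results below were picked out because the enrichment of a member differed between 2 locations or between 2 lines by a test of the difference itself, in the edgeR fit with the lysate as a block. No explanation of them was tested. In the RNA-seq, BID was lower in the AKAP1 null line than in WT (−1.02) and BNIP3L higher (0.61).

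In CDS footprints, BNIP3 was lower at the ER than at the OMM (−0.71), and MCL1 (−0.84), BNIP3 (−0.68) and BNIP3L (−0.73) were lower at the ER than in the cytosol. The last 3 calls were lost with TMM scaling (−0.19, −0.03 and −0.08) and with DESeq2 (−0.25, −0.10 and −0.14), and that of BNIP3 also without ER replicate 2 (−0.61, adjusted p = 0.0586). At the OMM against the cytosol, MCL1 was lower (−0.55) and BAX higher (0.60). The median of all genes in CDS footprints was −0.28 for ER against OMM, −0.66 for ER against cytosol and −0.36 for OMM against cytosol. In exon footprints, BID (−1.25), BCL2L11 (−0.83), BAX (−0.42) and BCL2L13 (−0.40) were lower at the ER than at the OMM. Against the cytosol, the ER enrichment was lower for MCL1 (−0.90), BNIP3 (−0.68), BBC3 (−0.59), BCL2L11 (−0.52), BCL2L13 (−0.58) and BNIP3L (−0.94). At the OMM against the cytosol, BID (1.44) and BAX (0.48) were higher, and MCL1 (−0.74) and BNIP3L (−0.51) lower. The median of all genes in exon footprints was −0.22 for ER against OMM, −0.61 for ER against cytosol and −0.35 for OMM against cytosol. Members near these medians, such as BBC3, BCL2L11 and BCL2L13 at the ER against the cytosol, moved with the bulk of genes. Of the ER calls against the cytosol in exon footprints, TMM scaling left that of MCL1 (−0.30, adjusted p = 0.045) and ended those of BNIP3 (−0.08), BBC3 (0.01), BCL2L11 (0.09), BCL2L13 (0.02) and BNIP3L (−0.34, adjusted p = 0.0963). BBC3 also lost it without ER replicate 1 (−0.32, adjusted p = 0.365), and BCL2L11 without ER replicate 1 (−0.57, adjusted p = 0.0829), ER replicate 2 (−0.47, adjusted p = 0.122) or cytosol replicate 1 (−0.44, adjusted p = 0.118). The exon call for BNIP3L between the OMM and the cytosol was lost with TMM scaling (−0.18) and without OMM replicate 1 (−0.38, adjusted p = 0.189), OMM replicate 2 (−0.72, adjusted p = 0.0609) or cytosol replicate 2 (−0.29, adjusted p = 0.165).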

How the results depend on the processing

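Of 1318 values of single members under the alternatives, 1141 counted as the same. For tested values this means the same side of the threshold, and values called in neither fit may have turned sign. The lysate without CHX had no test. Its 10 values with 5 counts added and 10 from the deposited score counted as the same because they lay inside the counting interval. A further 118 values lost a call in the same direction, 48 gained one and 11 turned sign with a call in at least 1 of the fits. Of 176 counts of called members 114 stayed within 1.5 times. With TMM scaling the sign turned for BNIP3 at the ER in CDS footprints (0.02) and, in exon footprints, at the ER for BBC3 (0.04), BNIP3 (0.07) and BCL2L13 (0.15), and at the ER against the cytosol for BCL2L11 (0.09), BBC3 (0.01) and BCL2L13 (0.02). With DESeq2 it turned in exon footprints at the ER for BBC3 (0.03), BNIP3 (0.03) and BCL2L13 (0.11), and against the cytosol for BCL2L11 (0.02). These scalings centre the bulk of genes, which moves the ER values by construction.

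Counts of called members moved as follows. A lower minimum and exon footprints test more members, so a higher count there need not be a change in the members. The shares of all genes for the main fit stand with the results above. Those for TMM scaling do as well, except for the cytosol pulldown and the LARP4 null difference from WT. In CDS footprints at the ER, 3 of 5 members tested became 6 with a minimum of 1 and 8 of 9 with exon footprints. Over all genes 19.8% were higher and 72.0% lower in CDS footprints, and 20.9% and 72.0% in exon footprints. With DESeq2 these shares were 25.9% and 21.2%, and 27.3% and 22.2%. At the OMM, 2 became 1 with DESeq2, with the stricter minimum and with no block. For ER against OMM, 1 became 0 with TMM, DESeq2, the stricter minimum or no block, 2 with only the libraries compared and 4 with exon footprints. For ER against cytosol, 3 (all lower) became 1 with TMM or DESeq2, where it was BAX, higher (0.83 and 0.76), 1 with no block, where it was MCL1, and 6 with exon footprints. For OMM against cytosol, 2 became 1 with TMM, DESeq2 or the stricter minimum, 0 with no block and 4 with exon footprints. In exon footprints at the ER, 8 became 3 with TMM (BAX and BID higher, MCL1 lower) and DESeq2, 4 with the stricter minimum and 2 with no block. For ER against OMM, 4 became 1 with TMM, DESeq2 or no block. For ER against cytosol, 6 (all lower) became 3 with TMM or DESeq2, where BAX and BID were higher and MCL1 lower, 3 with the stricter minimum, and 2 with no block. For OMM against cytosol, 4 became 1 with no block. In RNA-seq, the AKAP1 null count of 3 became 5 with TMM, DESeq2 or only the libraries compared, and 1 with no block. The LARP4 null count of 8 became 3 with no block or with only the libraries compared. The AKAP1 null difference from WT went from 2 to 1 with TMM, 0 with no block and 5 with only the libraries compared, and that of the LARP4 null line from 0 to 1 with DESeq2. The cause of these changes was not tested, except that a higher minimum tests fewer genes.

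Leaving out 1 replicate, with the lone lysate assumed to vary like the others, gave in CDS footprints 3 to 5 calls at the ER, 1 to 2 at the OMM, 0 in the cytosol, 0 for ER against OMM, 3 for ER against cytosol and 1 to 3 for OMM against cytosol. In exon footprints it gave 6 to 7, 3, 0 to 2, 2 to 3, 4 to 6 and 2 to 3 in the same order. In RNA-seq it gave 5 in WT, 1 in the AKAP1 null line, 7 to 8 in the LARP4 null line, 1 for the AKAP1 null difference and 0 to 2 for the LARP4 null difference. Among total inputs, replicate numbers were only names (correlations of 0.21, 0.31 and −0.16 between lines), and a block for the replicate number left 0 members called, as did leaving out any replicate. The shares of all genes in the fits with 1 replicate left out were not set beside these counts. A changed count there is therefore not read as a result about the members. The depth of the OMM pulldown 1, with 1025114 CDS footprints, limits the footprint values of the less abundant members most.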
